A study of Mus musculus with 36 samples.

Results

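Cst7, Itgax, Clec7a, Gpnmb, Spp1, Lpl, Axl, Lgals3, Dcstamp and Cd52 are genes described for microglia that surround amyloid plaques. They were selected on earlier results of these same slices, in which transcripts of plaque-associated microglia differed between genotypes, so the differences between genotypes given here are descriptions without a test. All 10 were found by their mouse Ensembl identifiers among the 55421 genes of the deposited table. All 10 are also among the 19478 genes that had enough counts to be tested. Dcstamp had 0 to 8 counts in any wild-type slice and passed that filter through the T41B slices.

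RNA was sequenced from slices of the right hippocampus of 18 mice at 16 months of age. Wild-type mice (WT) were C57BL/6. T41B mice were Thy1-hAPPLond/Swe (Line 41), an amyloid model in which a Thy1 cassette drives human APP with the Swedish and London mutations in neurons. From 13 months of age, mice of both genotypes were gavaged for 3 months with BD10-2, a small molecule that partly activates TrkB and TrkC (receptors for neurotrophins), or with vehicle. Slices were frozen directly after theta-burst stimulation, delivered in 3 rounds of 10 bursts with 200 ms between bursts and 4 stimuli at 100 Hz per burst, or after a sham procedure that lasted as long. The vehicle groups held 4 WT and 4 T41B mice, each with a sham and a stimulated slice. Under BD10-2 there were 4 WT and 6 T41B mice, of which 3 WT and 5 T41B mice formed each of the sham and the stimulated groups, so that these groups hold partly different mice. Both slices were sequenced for 14 mice. The slices are whole tissue, so a larger number of microglia and more RNA per microglial cell cannot be told apart.

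Microglia are the resident macrophages of the brain. Around amyloid plaques they lower the genes of their resting, homeostatic state and, through the receptor TREM2 and its adaptor TYROBP, take on a state known for phagocytosis, lysosomal digestion and the handling of lipids. Of the genes described here, Clec7a (dectin-1, a receptor for fungal beta-glucans that signals through SYK), Itgax (the integrin chain CD11c), Axl (a receptor tyrosine kinase for GAS6 and phosphatidylserine on dying cells) and Cd52 (a small GPI-anchored surface glycoprotein) act at the cell surface. Spp1 (osteopontin), Lpl (lipoprotein lipase) and Lgals3 (galectin-3) encode secreted proteins. Cst7 encodes cystatin F, an inhibitor of lysosomal cathepsins, Gpnmb a membrane glycoprotein of the endolysosome, and Dcstamp a membrane protein needed for the fusion of osteoclasts and macrophages.

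Libraries held between 11597555 and 28125842 expected counts (median 18082415). In 4 cases 2 libraries had equal labels for mouse and slice and were summed, so the 36 libraries gave 32 slices. Thy1, which the transgene cassette carries, was 253 to 403 CPM (counts scaled to a common library size) in the 16 WT libraries. In the 20 T41B libraries it was 918 to 2504 CPM. The lowest of these T41B values belongs to the first of 2 libraries labelled as the stimulated slice of Mouse1592, whose partner held 1937 CPM. Values of that slice are from the sum of both libraries unless a single library is named, and why the libraries differ was not tested. Neuronal markers summed to 1828 CPM or more and pan-microglial and macrophage markers to 149 CPM or more in every slice, so both cell classes of hippocampal tissue were present. Markers of monocytes and neutrophils summed to at most 1.38 CPM, those of T and B lymphocytes to at most 2.47 CPM and those of border macrophages to at most 6.98 CPM. Markers of dendritic cells summed to 13.8 to 46.1 CPM. Of the 3 dendritic markers tested, 1 was called higher after stimulation in WT mice under vehicle and 2 in T41B mice under vehicle. Under BD10-2 it was 1 in each genotype. Of the 8 monocyte and neutrophil markers, Retnlg was at 0 in every slice of 7 of the 8 groups and Camp in those of 7.

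To order the genes, levels were divided by the length of all annotated exons of a gene merged, which can exceed that of a single transcript. Axl was then highest of the 10 in WT sham slices under vehicle, at 8.74 ± 1.28 CPM per kilobase (SD, n = 4). Lpl followed at 2.58 ± 0.376 CPM per kilobase, and the ranges of both genes over slices stood clear of those of their neighbours in the order. Spp1 (0.913), Gpnmb (0.759), Cd52 (0.719), Lgals3 (0.464), Cst7 (0.343) and Clec7a (0.22 CPM per kilobase) came next, with neighbours that overlapped. Itgax (0.0985) and Dcstamp (0.0164 CPM per kilobase) were the lowest. In T41B sham slices under vehicle the order of levels was another. Cst7 led with 30.8 ± 9.01 CPM per kilobase (SD, n = 4), followed by Axl at 14.7 ± 2.61 and Spp1 at 10.6 ± 1.87 CPM per kilobase, none of which overlapped the gene above it. Cd52 (5.38), Clec7a (4.14), Gpnmb (3.7), Lpl (3.21), Itgax (3.03) and Lgals3 (2.23 CPM per kilobase) formed a run of overlapping neighbours that began at Spp1, and Dcstamp was again the lowest at 0.279 CPM per kilobase. In stimulated T41B slices under BD10-2, every neighbour in the order overlapped the next, with Cst7 at 42.0 ± 19.9, Axl at 25.001 ± 6.58 and Lgals3 at 18.05 ± 10.4 CPM per kilobase (SD, n = 5).

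**Figure D1:**
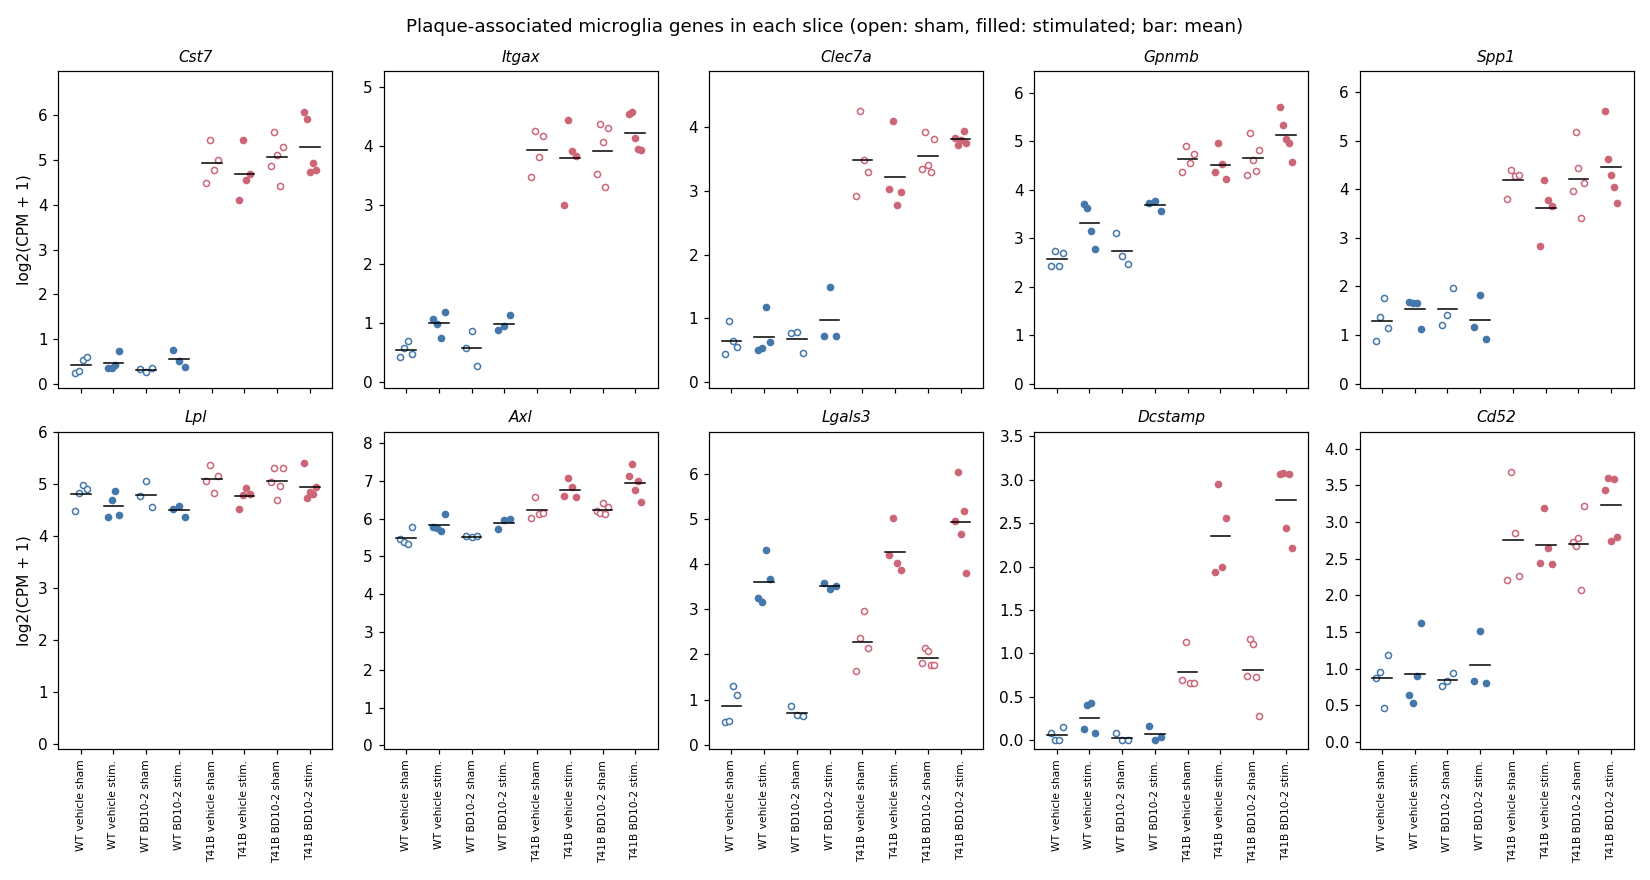
Level of each of the 10 genes, as log2(CPM + 1), in the 32 slices of the 8 groups; each circle is a slice, open for sham and filled for stimulated, blue for WT and red for T41B, and the bar is the mean. Cst7 lies below 0.69 CPM in all WT slices and above 16 CPM in all T41B slices, Lpl overlaps between genotypes, and Lgals3 is raised in stimulated slices of both genotypes.

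Cst7 had the largest fitted difference between genotypes in 3 of the 4 comparisons, and in stimulated slices under BD10-2 that of Dcstamp, on few WT counts, was larger. In sham slices under vehicle its level was 0.178, 0.216, 0.44 and 0.52 CPM in the 4 WT mice and 21.6, 42.4, 26.5 and 31.1 CPM in the 4 T41B mice. In stimulated slices under vehicle it was 0.278, 0.275, 0.346 and 0.676 CPM in WT and 16.2, 42.6, 22.5 and 24.99 CPM in T41B mice. The lowest T41B slice of the whole study, at 16.2 CPM, thus lay far above the highest WT slice, at 0.689 CPM. As log2 fold changes of T41B against WT, the fitted differences were 6.45 (SE 0.47) in sham and 6.1 (SE 0.45) in stimulated slices under vehicle, and 7.06 (SE 0.52) and 6.47 (SE 0.48) under BD10-2. In WT slices Cst7 rested on 3 to 17 counts, which limits the precision of these folds. The gene, Cst7 (ENSMUSG00000068129), lies at chr2:150570415-150578944 on the plus strand of GRCm38 (GENCODE M21) with 4 merged exons.

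The genes whose products act at the cell surface are given next. Itgax (ENSMUSG00000030789, chr7:128129547-128150657) was 0.356, 0.504, 0.629 and 0.404 CPM in WT and 10.2, 18.1, 13.1 and 16.9 CPM in T41B sham slices under vehicle, a log2 fold change of 4.94 (SE 0.38). Clec7a (ENSMUSG00000079293, chr6:129461591-129472779, minus strand, annotated as a polymorphic pseudogene in GENCODE M21) was 0.356, 0.937, 0.566 and 0.462 CPM in WT and 6.56, 18.1, 10.2 and 8.87 CPM in T41B mice there, a log2 fold change of 4.26 (SE 0.41). For both, every T41B slice of the study was above every WT slice, with the highest WT slice at 1.29 CPM for Itgax and 1.8 CPM for Clec7a and the lowest T41B slice at 7.0 and 5.89 CPM. Cd52 (ENSMUSG00000000682, chr4:134082448-134095082, minus strand) ran from 0.377 to 2.09 CPM over the 14 WT slices and from 3.22 to 11.9 CPM over the 18 T41B slices. Its exons overlap those of Crybg2 on the opposite strand and the strand setting of the counting is not given in the sources used here, so its counts are uncertain. Axl (ENSMUSG00000002602, chr7:25757273-25788705, minus strand) differed less, with a log2 fold change of 0.75 (SE 0.16) in sham slices under vehicle, and it is known to be made by astrocytes and vascular cells as well as microglia. The 5 astrocyte markers were also all positive for T41B in every genotype comparison, with 2, 2, 2 and 5 called higher, and summed to 1003 to 1212 CPM in WT and 2095 to 3085 CPM in T41B sham slices under vehicle. Their part in the Axl difference was not tested.

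Of the secreted and lysosomal products, Gpnmb (ENSMUSG00000029816, chr6:49036546-49070929) ran from 4.34 to 12.6 CPM in WT and from 17.5 to 51.1 CPM in T41B slices, and Spp1 (ENSMUSG00000029304, chr5:104435118-104441050) from 0.83 to 2.92 and from 6.09 to 48.1 CPM. The exons of Spp1 overlap those of Gm42793 on the same strand, so reads of these genes could have been divided between them. Lpl (ENSMUSG00000015568, chr8:68880491-68907448), which hippocampal neurons are also known to express, ran from 19.6 to 32.1 CPM in WT and from 21.8 to 41.4 CPM in T41B slices. Its log2 fold changes between genotypes were 0.32 (SE 0.16), 0.18 (SE 0.16), 0.29 (SE 0.16) and 0.49 (SE 0.17), in the order vehicle sham, vehicle stimulated, BD10-2 sham and BD10-2 stimulated. The WT and T41B slices of Lpl overlapped in the first 3 of these comparisons. Without the first stimulated library of Mouse1592 the last value was 0.53. Lgals3 (ENSMUSG00000050335, chr14:47367751-47386160) had genotype log2 fold changes of 2.25 (SE 0.5) in sham and 0.72 (SE 0.35) in stimulated slices under vehicle, where the genotypes overlapped only after stimulation.

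Dcstamp (ENSMUSG00000022303, chr15:39745930-39760938) was counted only a few times in WT slices, so its genotype difference is given as a ratio of summed counts, scaled for library size, with an exact 95% interval that covers counting error only. In sham slices under vehicle, 56 counts in T41B against 3 in WT mice gave a ratio of 16.1 (5.24 to 80.5). After stimulation under vehicle, 309 against 17 counts gave 19.7 (12.1 to 34.2). Under BD10-2 the ratios were 22.7 (7.51 to 112) in sham slices, from 82 against 3 counts, and 106 (41.1 to 390) in stimulated slices, from 587 against 4 counts. These intervals leave out the spread between mice, so the 4 ratios are not compared with each other.

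By description, 9 of the 10 genes were called higher in T41B mice (edgeR adjusted p under 0.05 over all genes tested) in sham slices under vehicle, 8 in stimulated slices under vehicle, 9 in sham and 9 in stimulated slices under BD10-2. Among all genes tested, 5%, 4.74%, 4.31% and 8.19% were called higher in the same order. Since this contrast chose the genes, nothing is read from those counts. The median log2 fold changes of the 10 were 3.22, 2.57, 3.11 and 3.4, against 0.0, -0.03, 0.01 and -0.02 over all genes tested, and the medians stayed the same with Dcstamp set to its ratio of counts. For Cst7, Itgax, Clec7a, Gpnmb, Spp1 and Cd52, no WT slice of either kind reached the lowest T41B slice. Inside the labelled batches that held both genotypes, 7 combinations of batch and slice could be compared, with 1 or 2 mice per genotype. T41B was higher in all 7 for 8 genes, and in 6 of 7 for Lpl and Lgals3. Sham and stimulated slices of the same mice enter as separate combinations. The share of all genes tested was not computed for the overlap or for the batches, so nothing is read from either. The 10 pan-microglia and macrophage markers were also called higher in T41B mice, 10, 9, 10 and 10 of 10 in that order, and 10, 6, 9 and 10 of the 12 homeostatic markers. Their medians were smaller, at log2 fold changes of 1.68, 1.45, 1.51 and 1.66 for the pan-microglia list and 1.1, 0.79, 1.1 and 1.21 for the homeostatic list.

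The sequence before the start site is shown for Cst7, which differed widely between genotypes, for Lgals3, which was called in all 4 stimulation comparisons, and for Itgax, which held the largest number of the motifs searched. The windows are from RefSeq on GRCm38.p6, cut where annotated exons begin, and capitals mark matches to GGAAGT, the core letters bound by the macrophage factor PU.1, and to TGANTCA, the AP-1 letters, on either strand.
Cst7 (chr2:150570165-150570414, + strand): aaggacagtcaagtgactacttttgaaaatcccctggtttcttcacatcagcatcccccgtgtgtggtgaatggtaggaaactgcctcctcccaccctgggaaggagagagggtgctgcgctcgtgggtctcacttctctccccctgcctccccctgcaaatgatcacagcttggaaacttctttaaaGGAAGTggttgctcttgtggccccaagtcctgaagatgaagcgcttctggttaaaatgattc
Itgax (chr7:128129300-128129546, + strand): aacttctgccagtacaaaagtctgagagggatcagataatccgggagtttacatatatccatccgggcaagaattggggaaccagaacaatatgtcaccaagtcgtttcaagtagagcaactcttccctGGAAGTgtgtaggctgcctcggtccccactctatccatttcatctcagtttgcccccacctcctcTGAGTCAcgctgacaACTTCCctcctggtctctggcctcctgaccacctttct
Lgals3 (chr14:47373610-47373812, + strand): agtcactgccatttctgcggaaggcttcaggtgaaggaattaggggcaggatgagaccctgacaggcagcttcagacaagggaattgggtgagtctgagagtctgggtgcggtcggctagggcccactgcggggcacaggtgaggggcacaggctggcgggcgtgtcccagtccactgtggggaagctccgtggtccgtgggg
Cst7 holds GGAAGT 62 bases before its start. Itgax holds these letters at 121 bases and, on the other strand, at 41 bases before the RefSeq start, with TGANTCA between them at 56 bases. The printed Lgals3 window, which lies inside the longer GENCODE gene, holds neither. Of the 10 genes, 7 had a RefSeq window of 250 bases before to 50 after a start, with 9 windows in all. GGAAGT occurred in 3 of these 9 windows (1 each of Cst7, Itgax and Spp1), against 23.8% of all 32851 windows. TGANTCA occurred in the windows of 3 genes (Cst7, Gpnmb and Itgax), 3 of the 9 windows, against 7.81% of all windows. The Cst7 and Gpnmb matches do not lie wholly in the bases before the start, and the end of the Gpnmb window was not found in an annotated transcript. CACGTG, the letters bound by the lysosomal factors MITF and TFE, occurred in none of them, against 7.15% of windows. A match describes letters only, and no binding was measured.

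Stimulation was compared with sham slices within each genotype and treatment, which asks what acute synaptic activation changed in the tissue. Among the 10 genes, Lgals3 rose in all 4 comparisons, Gpnmb in both WT comparisons, and Axl and Dcstamp in both T41B comparisons. Cst7, Itgax, Clec7a, Spp1, Lpl and Cd52 were called in none of the 4, and no gene was called lower. These calls are from the fit without pairing. With the mouse as a replicate block, Spp1 and Lpl were also called lower in T41B mice under vehicle and Axl higher in WT mice under vehicle. Without the block, 2 of 10 genes were called higher in WT mice under vehicle, 3 in T41B mice under vehicle, 2 in WT mice under BD10-2 and 3 in T41B mice under BD10-2, where 8.21%, 11.7%, 6.29% and 13.3% of all genes tested were called higher and 4.1%, 9.83%, 2.58% and 9.52% lower. The median log2 fold changes of the 10 were 0.37, -0.16, 0.61 and 0.39 in that order (0.63 in place of 0.61 with Dcstamp at its ratio of counts), against -0.01, -0.05, -0.01 and -0.04 over all genes tested.

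**Figure D2:**
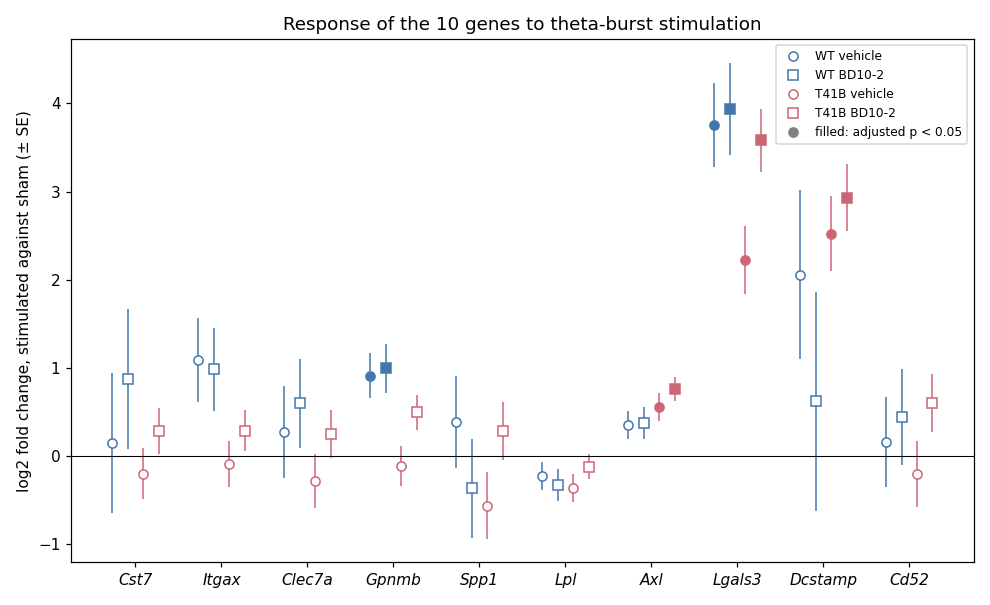
Log2 fold change of stimulated against sham slices for the 10 genes in each genotype and treatment, with the standard error from edgeR as the bar; filled symbols have an adjusted p under 0.05 over all 19478 genes. Lgals3 is raised in all 4 comparisons by 2.22 to 3.93, Axl and Dcstamp are filled only for T41B and Gpnmb only for WT, and the wide bars of Dcstamp in WT rest on 3 to 17 counts per group.

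Lgals3, the galectin that is recruited to damaged lysosomes and acts as a ligand of TREM2, rose in every stimulation comparison, with the largest fitted change of the 10 genes in 3 of the 4. In T41B mice under vehicle the fitted change of Dcstamp was larger, at 2.52 against 2.22, without a test between the genes. Under vehicle it went from 0.415, 0.432, 1.45 and 1.15 CPM in sham to 8.47, 7.99, 18.8 and 11.9 CPM in stimulated slices of the same WT mice, in the order Mouse1509, Mouse1513, Mouse1522 and Mouse1524. In T41B mice under vehicle (Mouse1510, Mouse1551, Mouse1553 and Mouse1579) it went from 2.13, 4.15, 6.86 and 3.41 to 17.4, 31.6, 15.3 and 13.6 CPM. The stimulated slices lay above all sham slices in both genotypes. The log2 fold change was 3.75 (SE 0.47, adjusted p = 1.36e-06, edgeR) in WT and 2.22 (SE 0.38, adjusted p = 6.94e-05, edgeR) in T41B mice. Under BD10-2, WT sham slices held 0.807, 0.574 and 0.541 CPM and WT stimulated slices 10.9, 9.92 and 10.5 CPM, a log2 fold change of 3.93 (SE 0.53, adjusted p = 5.54e-06, edgeR). T41B sham slices under BD10-2 held 2.5, 3.42, 3.24, 2.39 and 2.38 CPM, and stimulated slices 30.2, 64.7, 24.7, 35.1 and 12.9 CPM. The last of these is Mouse1592, and the spread among the stimulated slices was wide, yet none reached down to the sham slices (log2 fold change 3.58, SE 0.36, adjusted p = 6.09e-09, edgeR). Within the 14 mice with both slices, Lgals3 was higher in the stimulated slice of all 14, by 10.3-fold to 20.4-fold in the 6 WT mice and 2.23-fold to 20.001-fold in the 8 T41B mice.

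Dcstamp showed its response in T41B mice. Under vehicle it went from 0.62505, 1.18, 0.585 and 0.577 CPM in sham to 2.82, 6.7, 2.97 and 4.88 CPM in stimulated T41B slices, in the order of mice given above. Under BD10-2 the T41B sham slices held 0.67, 1.24, 1.16, 0.66 and 0.212 CPM and the stimulated slices 7.37, 7.43, 4.42, 7.35 and 3.63 CPM. Every stimulated T41B slice was above every sham T41B slice, with log2 fold changes of 2.52 (SE 0.43, adjusted p = 5.85e-05, edgeR) under vehicle and 2.93 (SE 0.38, adjusted p = 5.60e-07, edgeR) under BD10-2. In WT mice the counts were too few to measure a response of this size well. Summed over mice, 17 counts after stimulation against 3 in sham slices under vehicle gave a ratio of 4.58 (exact 95% interval 1.32 to 24.4), and 4 against 3 counts under BD10-2 gave 1.58 (0.267 to 10.8). Neither WT comparison was called.

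Axl rose moderately in T41B mice. Its level was 63.5, 93.2, 69.1 and 70.0 CPM in sham and 95.9, 133, 113 and 93.5 CPM in stimulated T41B slices under vehicle, so that the lowest stimulated slice just cleared the highest sham slice (log2 fold change 0.56, SE 0.15, adjusted p = 9.26e-03, edgeR). Under BD10-2 it was 72.1, 69.7, 83.5, 68.4 and 78.1 CPM in sham and 139, 173, 106, 125 and 85.5 CPM in stimulated T41B slices (log2 fold change 0.76, SE 0.14, adjusted p = 1.18e-04, edgeR). The lowest stimulated slice there is again Mouse1592. In WT mice Axl was 39.2 to 53.4 CPM in sham and 49.9996 to 68.2 CPM in stimulated slices, with log2 fold changes of 0.35 (SE 0.16, adjusted p = 0.146, edgeR) under vehicle and 0.38 (SE 0.18, adjusted p = 0.207, edgeR) under BD10-2. The WT slices under BD10-2 did not overlap, and a fit of only these groups called the change (0.38, adjusted p = 0.0262, edgeR). With the mouse as a replicate block, which compares the slices of each mouse with each other, the WT change under vehicle was called at 0.35 (SE 0.11, adjusted p = 0.0373, edgeR). Axl was higher in the stimulated slice of all 14 mice, by 1.09-fold to 2.07-fold. The T41B call under vehicle was lost without Mouse1553 (log2 fold change 0.51, edgeR adjusted p = 0.0568) and without the slices that held choroid plexus markers (0.5, edgeR adjusted p = 0.171). Of 5 astrocyte markers, 3 were called higher after stimulation in WT and in T41B mice under vehicle and in T41B mice under BD10-2, and their part in the Axl change was not tested.

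Gpnmb rose in WT slices. Under vehicle it was 4.39, 5.62, 4.34 and 5.43 CPM in sham and 11.9, 11.3, 7.91 and 5.84 CPM in stimulated WT slices (log2 fold change 0.91, SE 0.26, adjusted p = 0.0171, edgeR). Under BD10-2 it was 7.66, 5.22 and 4.55 CPM in sham and 12.2, 12.6 and 10.8 CPM in stimulated WT slices (log2 fold change 0.99, SE 0.28, adjusted p = 0.0205, edgeR). In both comparisons every stimulated slice was above every sham slice, though Mouse1524 moved little, from 5.43 to 5.84 CPM. In T41B mice Gpnmb was 19.5 to 28.98 CPM in sham and 17.5 to 30.1 CPM in stimulated slices under vehicle, with full overlap (log2 fold change -0.11, SE 0.23, adjusted p = 0.767, edgeR). Under BD10-2 its T41B log2 fold change was 0.5 (SE 0.2, adjusted p = 0.0736, edgeR), which passed without the first stimulated library of Mouse1592 (0.54, edgeR adjusted p = 0.0381) and without Mouse1592 altogether (0.65, edgeR adjusted p = 0.0265).

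The WT calls of Gpnmb rested on few slices. Under vehicle the call was lost without Mouse1509 (log2 fold change 0.71, edgeR adjusted p = 0.164), Mouse1513 (0.87, edgeR adjusted p = 0.0757) or Mouse1522 (0.93, edgeR adjusted p = 0.0516). Under BD10-2 it was lost without Mouse1571 (0.87, edgeR adjusted p = 0.173) or Mouse1590 (0.85, edgeR adjusted p = 0.134). The stimulated slices of Mouse1509 and Mouse1513, the higher pair for Gpnmb under vehicle, also carried choroid plexus markers summing to 1231 and 1009 CPM, where those of Mouse1522 and Mouse1524 held 21.1 and 14.4 CPM, and all 9 choroid plexus markers were called higher in that comparison. Without the 6 slices of the study above 100 CPM of these markers, the Gpnmb log2 fold change under vehicle was 0.48 (SE 0.29, adjusted p = 0.28, edgeR). Under BD10-2 no WT slice exceeded 22.3 CPM of choroid plexus markers, and stimulated Gpnmb was 10.8 to 12.6 CPM there. The part of choroid plexus tissue in the Gpnmb changes was not tested.

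**Figure D3:**
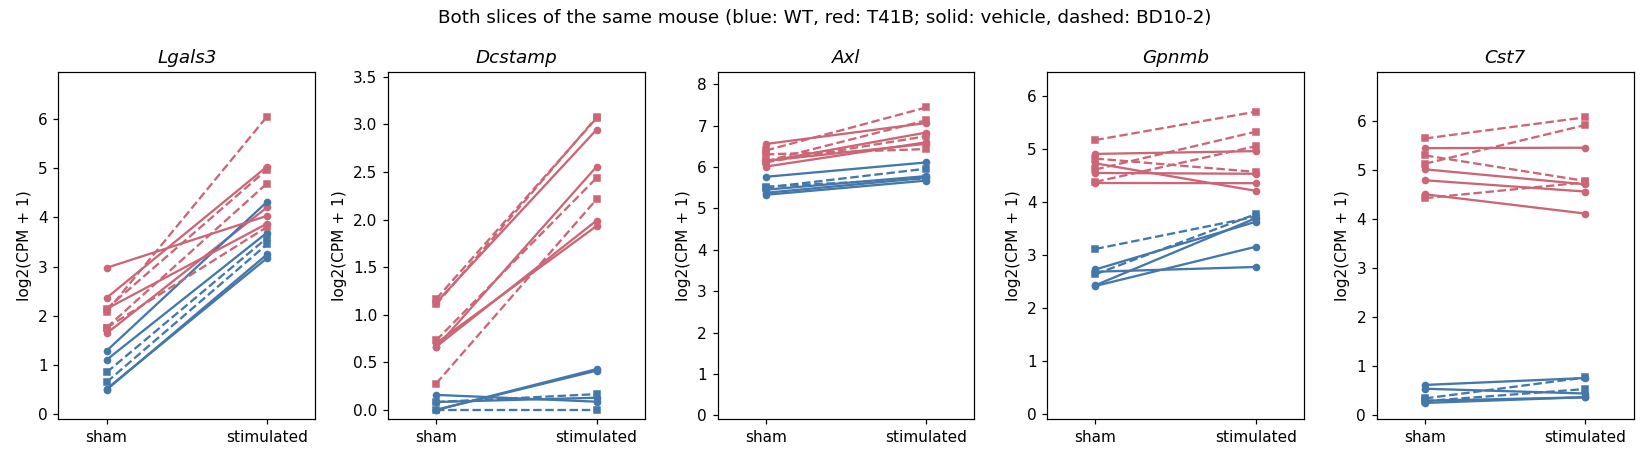
Level of 5 of the genes, as log2(CPM + 1), in the sham and stimulated slice of each of the 14 mice with both, joined by a line; blue is WT, red T41B, solid vehicle and dashed BD10-2. All 14 lines rise for Lgals3 and Axl, the 8 T41B lines rise for Dcstamp, the 6 WT lines rise for Gpnmb, and the lines of Cst7 go in both directions.

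The other 6 genes were called in no stimulation comparison. Cst7 had stimulation log2 fold changes of -0.2 (SE 0.29) and 0.28 (SE 0.26) in T41B mice under vehicle and BD10-2. Its edgeR adjusted p was 0.678 and 0.469. In WT mice under BD10-2 the stimulated slices, at 0.295 to 0.689 CPM, did not overlap the sham slices, at 0.209 to 0.271 CPM, yet the test did not call it (log2 fold change 0.88, SE 0.79, adjusted p = 0.5677, edgeR). Itgax had 1.09 (SE 0.48, adjusted p = 0.137, edgeR) and 0.98 (SE 0.47, adjusted p = 0.21, edgeR) in WT mice, where stimulated slices at 0.691 to 1.29 and 0.851 to 1.21 CPM did not overlap the sham slices at 0.356 to 0.629 and 0.217 to 0.835 CPM. In T41B mice Itgax had -0.09 (SE 0.26) and 0.29 (SE 0.23). Clec7a and Cd52 had log2 fold changes between -0.28 and 0.6 with overlapping groups throughout. Within mice, the stimulated slice was higher in 9 of 14 for Cst7, 11 for Itgax, 7 for Clec7a, 9 for Cd52, 6 for Spp1 and 3 for Lpl.

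Spp1 had negative values in T41B mice under vehicle and in WT mice under BD10-2 (-0.37, SE 0.57), and 0.38 (SE 0.52) in WT mice under vehicle. Lpl had negative values in all 4 comparisons. Spp1 went from 13.0, 20.04, 18.3 and 18.6 CPM to 6.09, 17.3, 12.8 and 11.5 CPM, lower in the stimulated slice of each of the 4 mice (log2 fold change -0.56, SE 0.38, adjusted p = 0.308, edgeR). Lpl went from 32.3, 40.1, 27.3 and 34.7 to 21.8, 26.7, 29.4 and 27.01 CPM, lower in 3 of 4 (log2 fold change -0.36, SE 0.16, adjusted p = 0.109, edgeR). With the mouse as a replicate block, both were called in that comparison, Spp1 at -0.61 (SE 0.19, adjusted p = 0.0276, edgeR) and Lpl at -0.35 (SE 0.11, adjusted p = 0.0253, edgeR), which brings the genes called there from 3 to 5. Under BD10-2 the T41B values were 0.29 (SE 0.33) for Spp1 and -0.12 (SE 0.14) for Lpl, and neither was called with or without the block. With the block the WT value of Spp1 under BD10-2 turned positive, at 0.25 (SE 0.4), and 1 of the 2 pairs was higher after stimulation. In WT mice Lpl had -0.22 (SE 0.16) under vehicle and -0.33 (SE 0.18) under BD10-2, lower in the stimulated slice of all 4 and both of the 2 pairs, and was not called.

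Whether the response to stimulation differs between genotypes was tested as an interaction. These comparisons share the slices on which the genes were selected. None of the 10 genes was called, where 0% of all genes tested were called under vehicle, 0% under BD10-2 and 0.195% (38 genes) for the mean of both treatments. The last count was 93 without the first stimulated library of Mouse1592, 201 without Mouse1592 and 11 with the mouse block, with none of the 10 genes in any of them. Gpnmb had a T41B response smaller than the WT response by a log2 difference of -1.02 (SE 0.34, adjusted p = 0.436, edgeR) under vehicle, -0.5 (SE 0.34, adjusted p = 1.0, edgeR) under BD10-2 and -0.76 (SE 0.24, adjusted p = 0.246, edgeR) over both. All 9 choroid plexus markers and all 5 oligodendrocyte markers were also negative under vehicle, with medians of -4.62 and -0.64. Their part in the Gpnmb difference was not tested. For Itgax the difference was -1.18 (SE 0.54, adjusted p = 0.556, edgeR) and for Lgals3 -1.53 (SE 0.62, adjusted p = 0.521, edgeR) under vehicle. Under BD10-2 it was -0.69 (SE 0.52) for Itgax and -0.35 (SE 0.63) for Lgals3. The difference for Axl was 0.21 (SE 0.22) under vehicle and 0.38 (SE 0.23) under BD10-2, so its calls in T41B but not in WT mice are not shown to differ by genotype. At an unadjusted p under 0.05, 3 of the 10 genes passed under vehicle, 0 under BD10-2 and 3 for the mean of both, and 1683, 846 and 1791 of all genes tested. DESeq2 called 1, 19 and 146 genes in all in these comparisons, none of them among the 10.

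The other plaque-microglia genes, a list of 20 that includes Trem2, its adaptor Tyrobp and the lipid carrier Apoe, were set beside them. After stimulation, 7 of the 20 were called higher in WT mice under vehicle, 3 in T41B mice under vehicle, 5 in WT mice and 7 in T41B mice under BD10-2, where 8.21%, 11.7%, 6.29% and 13.3% of all genes tested were. Called lower were 0, 2, 0 and 2, where 4.1%, 9.83%, 2.58% and 9.52% of all genes tested were. The medians were 0.28, 0.15, 0.2 and 0.23 on the log2 scale. Ch25h, which makes 25-hydroxycholesterol, rose by 2.59 (SE 0.33), 1.97 (SE 0.25), 1.72 (SE 0.33) and 2.47 (SE 0.23) in that order, with edgeR adjusted p of 1.69e-06, 1.07e-06, 6.26e-04 and 1.67e-09. The tetraspanin Cd63 rose in all 4 as well, by 0.81 to 1.18, and so did the growth factor Csf1, by 0.76 to 0.88. Cd9, another tetraspanin, rose by 1.08 and 0.81 in WT mice and by 0.55 in T41B mice under BD10-2. Cd68 of the lysosomal membrane rose by 0.74 and 1.13 in WT mice, and B2m, the light chain of the MHC class I molecules that present antigen to T cells, by 0.76 in WT mice under vehicle and 0.78 in T41B mice under BD10-2. Fth1 (ferritin heavy chain, 0.58) rose in T41B mice under BD10-2. The chemokine gene Ccl6 fell by 1.12 and the lysosomal protease gene Ctsd by 0.67 in T41B mice under vehicle. Trem2 and Apoe were called in none of the 4, with Trem2 between -0.52 and 0.02 and Apoe between 0.13 and 0.27. In the genotype comparisons 18, 16, 17 and 17 of the 20 were called higher in T41B mice, and Ank and Timp2 were not called in sham slices under vehicle.

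Homeostatic markers of microglia were mostly called lower after stimulation, and general markers of microglia and macrophages were mixed. No test was made between the lists. The 12 homeostatic markers had only negative stimulation log2 fold changes, with 10, 10, 9 and 10 of them called lower and medians of -1.38, -1.73, -1.59 and -1.29, in the order WT vehicle, T41B vehicle, WT BD10-2 and T41B BD10-2. Of the 10 pan-microglia and macrophage markers, 4, 5, 3 and 2 were called lower and 0, 0, 0 and 1 higher. Their medians were -0.43, -0.53, -0.33 and -0.07, with 4, 1, 4 and 5 of the 10 positive. The sum of the pan-microglia list ran from 646 to 894 CPM in sham and from 613 to 907 CPM in stimulated T41B slices under BD10-2. Under vehicle it ran from 490 to 1083 CPM in sham and from 421 to 651 CPM in stimulated T41B slices. In WT slices it ran from 185 to 259 and from 149 to 228 CPM under vehicle, and from 201 to 258 and from 174 to 215 CPM under BD10-2. Summed over genes, the homeostatic markers ran from 538 to 904 CPM in sham and from 263 to 348 CPM in stimulated T41B slices under vehicle, while the 10 plaque genes ran from 173 to 278 and from 198 to 333 CPM. Axl supplies the largest share of that second sum. Gene by gene, 3 of the 10 plaque genes had positive stimulation log2 fold changes in T41B mice under vehicle, with a median of -0.16.

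**Figure D4:**
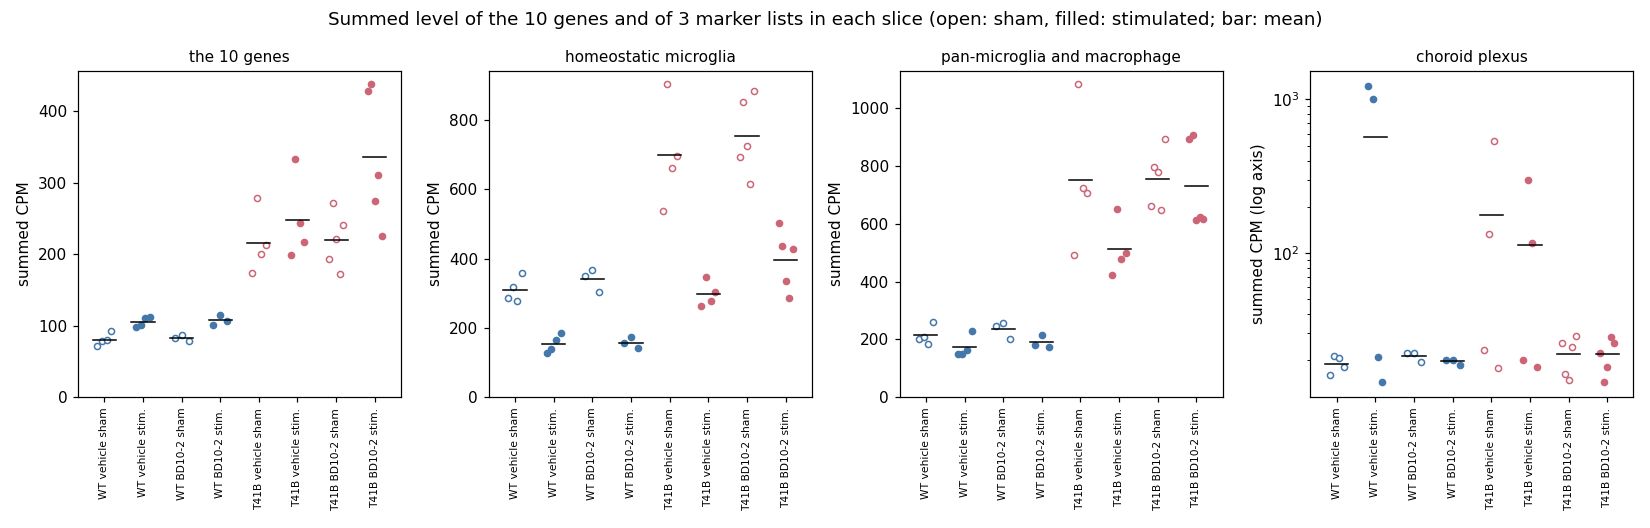
Summed CPM of the 10 genes, of the 12 homeostatic markers, of the 10 pan-microglia and macrophage markers and, on a log axis, of the 9 choroid plexus markers in each slice; circles are slices, open for sham and filled for stimulated, and bars are means. Homeostatic sums drop in stimulated slices of every pair of groups. The sums of the 10 genes, of which Axl supplies the largest share, do not drop. Choroid plexus markers exceed 100 CPM in 6 slices.

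BD10-2 was compared with vehicle within each genotype and kind of slice. No gene of the 10 was called in any of the 4 comparisons, and 0%, 0%, 0% and 0% of all genes tested were called with edgeR in WT sham, WT stimulated, T41B sham and T41B stimulated slices. In stimulated T41B slices all 10 log2 fold changes were positive, from 0.2 to 0.99 with a median of 0.59, against 0.01 over all genes tested. At an unadjusted p under 0.05, 4 of the 10 passed there (Cst7, Gpnmb, Spp1 and Lgals3) and 759 of all genes tested (374, 1093 and 431 in the other comparisons in that order), and every edgeR adjusted p was 1.0. In sham T41B slices the median was 0.01 and none of the 10 had an unadjusted p under 0.05. In WT mice the medians were 0.01 in sham and 0.03 in stimulated slices, with 5 and 6 of the 10 positive. Dcstamp was at -1.88 (SE 0.91) in stimulated WT slices, on few counts. All 10 pan-microglia and macrophage markers also had positive values in stimulated T41B slices, with a median of 0.47, and so did 11 of the 12 homeostatic markers, with a median of 0.47. All 5 oligodendrocyte markers (median 0.37), all 5 astrocyte markers (median 0.09) and 1 of the 5 neuron markers were positive there too. The part of these lists in the values of the 10 genes was not tested. DESeq2 called 23 genes in stimulated WT slices and none of the 10 in any of the 4 comparisons.

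The values behind this were uneven among mice. Cst7 was 66.1 and 59.1 CPM in the stimulated slices of Mouse1563 and Mouse1564, and 25.7, 29.7 and 26.2 CPM in Mouse1570, Mouse1572 and Mouse1592, against 16.2 to 42.6 CPM in stimulated T41B slices under vehicle. Spp1 was 48.1, 23.5, 18.7, 15.6 and 12.2 CPM in the same order of mice, against 6.09 to 17.3 CPM under vehicle. Mouse1563 and Mouse1564 both exceeded the whole vehicle range for 7 of the 10 genes. For 3 of those 7 (Cst7, Itgax and Axl) none of the other 3 mice did. The share of all genes tested with such values was not computed, so nothing is read from these counts. Mouse1563 and Mouse1564 make up the batch labelled H, which holds only T41B mice under BD10-2. Without that batch the median of the 10 was 0.27, with values from -0.04 to 0.56. Each labelled batch holds a single treatment, so batch and treatment cannot be told apart. Of the libraries that share labels, those of the stimulated slice of Mouse1592 held 13.5 and 37.0 CPM of Cst7 and 1.24 and 5.65 CPM of Dcstamp, and those of the sham slice of Mouse1557 held 37.9 and 19.02 CPM of Cst7. Leaving out the first of the former gave a median of 0.68 for the 10 genes, and leaving out the slices with choroid plexus markers gave 0.91, with values from 0.31 to 1.43. The difference in stimulation response between BD10-2 and vehicle in T41B mice was positive for all 10 genes, from 0.2 to 1.36, with Lgals3 the largest (SE 0.51, adjusted p = 1.0, edgeR). None was called, nor were any genes of the table (0%), where 526 had an unadjusted p under 0.05 and DESeq2 called 1.

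The 10 genes were also compared with each other across slices. After the mean of each of the 8 groups was taken off, the log2 CPM of all 45 pairs of genes correlated positively over the 32 slices, with Pearson's r from 0.01 to 0.72 and a median of 0.36. The highest was that of Axl with Cd52. These are descriptions, since slices of a mouse share that mouse and all genes of a slice share its library and its content of microglia. The share of positive values among pairs of other genes was not computed, so nothing is read from the count of pairs. For each gene the 3 genes with the most similar pattern were taken from all genes averaging at least 1 CPM. Cst7 was most like Hexa (r = 0.83), Fcgr3 (0.82) and Ly86 (0.81), and Itgax most like Cxcl16 (0.75), Tlr2 (0.73) and Cd68 (0.73). Clec7a was most like Cd33 (0.71), Rgs1 (0.7) and C4b (0.7), and Gpnmb most like AU020206 (0.82), Gm8995 (0.79) and Sulf1 (0.79). For Spp1 they were Hif1a (0.74), Ifit1bl1 (0.74) and Parp11 (0.74), and for Lpl Megf9 (0.79), Uxs1 (0.76) and Gm43544 (0.75). Axl was most like Npc2 (0.92), Shisa5 (0.89) and Clu (0.89), and Lgals3 most like Syk (0.86), Cndp2 (0.84) and Crybg1 (0.82). Dcstamp had Gm7143 (0.71), Prdm1 (0.67) and Cyren (0.62), and Cd52 had Unc93b1 (0.84), Rftn2 (0.84) and C1qb (0.81). Among these like genes, Hexa, Npc2 and Cd68 encode lysosomal proteins, and Fcgr3, Tlr2, Cd33 and C1qb encode receptors or complement of macrophages. The rest were not grouped by function, and no theme was tested.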

How the data were processed

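RNA was measured in 36 libraries of mouse hippocampal slices, 200 ng of total RNA each, with ribosomal RNA removed and strand kept, per the labels' protocols. The authors deposited RSEM expected counts per gene, unscaled, of which 5.69% are not whole. The submitters' processing notes name cutadapt 1.8.1, STAR 2.7.6a, RSEM 1.3.1, featureCounts 1.6, SAMtools 1.11 and the builds GRCm38.p6 and mm10. The strand setting and annotation release are not given in the sources used here. Genotype, treatment, slice, mouse and batch came from the labels.

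Libraries with equal labels were added and counts rounded. Genes were filtered with filterByExpr (minimum count 10), scaled by TMM (factors 0.91 to 1.063) and tested with edgeR 4.0.16 (R 4.3.3), with its quasi-likelihood test and a design of 8 group means. P-values were adjusted by Benjamini-Hochberg over all 19478 genes, with calls under 0.05. CPM uses the TMM-scaled library size. The numbers of mice pair the slices, since both came from the same animal. Deviations of the 14 pairs correlated at 0.0224 to 0.411 (mean 0.205). Expected counts and totals set the precision, and intervals cover counting error only. Alternatives were RLE scaling, DESeq2 1.42.0, no filter, a mouse block, a batch covariate, only the groups compared, single libraries of equal-label pairs and leaving out each mouse. After the data were seen, 3 were added, namely leaving out the first stimulated library of Mouse1592, slices above 100 CPM of choroid plexus markers, and batch H. The fit was tested on simulated data.

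The genes, the other lists and the naming rule were chosen with earlier results of these data known. Named were the 10 genes, at most 6 called genes of the other plaque-microglia list per stimulation comparison and 3 like genes each. Gene spans and exon lengths are from GENCODE M21. Markers of dendritic cells, fibroblasts, endothelium and oligodendrocytes were also summed. Their sums over slices ran from 13.8 to 46.1, 9.77 to 77.6, 43.8 to 177 and 3159 to 10698 CPM.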

Additional observations from a re-analysis of the deposited data

Results flagged for a closer look

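Of 60 sets of 4 or 5 slices of a group, 5 held a slice whose distance from its nearest neighbour was a large part of the range of the group, where chance gives about 1 in 20. Clec7a in stimulated WT slices under vehicle was 1.25 CPM in Mouse1522, against 0.417 to 0.553 CPM in the other mice. Clec7a in stimulated T41B slices under vehicle was 16.1 CPM in Mouse1551, against 5.89 to 7.18 CPM. Dcstamp in sham T41B slices under vehicle was 1.18 CPM in that mouse too, against 0.577 to 0.62505 CPM. Spp1 in stimulated WT slices under vehicle was 1.17 CPM in Mouse1524, below the others at 2.15 to 2.22 CPM. Lpl in stimulated T41B slices under BD10-2 was 41.4 CPM in Mouse1563, against 25.3 to 29.6 CPM.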

How the results depend on the processing

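Across the 29 settings, the 10 stimulation calls were recomputed 149 times; 140 stayed past the threshold in the same direction, 9 were lost and 0 changed direction. For stimulation, leaving out a mouse gave 1 to 2 genes called in WT mice under vehicle and 1 to 2 under BD10-2, in place of 2. Without the choroid plexus slices 1 gene was called in WT mice under vehicle, and with the first library of each equal-label pair 1 in WT mice under BD10-2. With the mouse as a replicate block, 5 in place of 3 were called in T41B mice under vehicle; of the other calls of the 10 genes, the block changed that of Axl in WT mice under vehicle alone. Calls of the other lists were not recomputed with it. Over all genes, the genotype-by-stimulation calls went from 0 to 3 under vehicle and from 38 to 11 for the mean of both treatments with the block. That mean count ran from 10 to 201 without single mice and was 8 or 132 with the first or second library of each equal-label pair, 111 with the batch covariate, 146 with DESeq2, 5 without the choroid plexus slices and 10 without batch H. Under BD10-2 the 0 calls became 79 without Mouse1592. With only the groups compared, 3 of the 10 genes in place of 2 were called for stimulation in WT mice under BD10-2. The genotype contrast chose the genes, so its changes are descriptions. Without the choroid plexus slices, the 8 calls in stimulated slices under vehicle became 5 (lost were Spp1 at 2.36 against 2.6, Axl at 0.7 against 0.96 and Cd52 at 1.63 against 2.53), and the 9 in sham slices under vehicle became 6 (lost were Axl at 0.61, Lgals3 at 1.68 and Dcstamp). That setting leaves 2 of the 4 T41B mice under vehicle, and it also leaves out the stimulated slices of the WT mice Mouse1509 and Mouse1513. With the batch covariate, Axl (0.52) and Lgals3 (1.43) were lost in sham slices under vehicle. Lgals3 was also lost in sham slices under BD10-2 without any single WT mouse (1.93 to 2.31) and in stimulated slices without batch H (1.2). The Lpl difference in stimulated slices under BD10-2 was 0.51 to 0.63 in the 6 settings that moved it past the threshold. The causes were not tested. Few counts limit Dcstamp, Cst7, Itgax and Clec7a in WT slices, and groups of 3 to 5 mice limit the tests of BD10-2.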
